A study of Mus musculus with 6 samples.

Results

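Rhox5, Rhox8, Rhox10, Rhox13 and Esx1 are X-linked homeobox genes of the reproductive tract, and they were taken by name from a table of 49671 genes measured in whole testes of juvenile mice. All 5 passed the filter on low counts, which left 18040 genes. The study compared 3 mice with a homozygous knockout of Ankrd31 (Ankrd31-/-, called KO) with 3 wild-type mice (Ankrd31+/+, called WT), all of strain C57BL/6J and 12 days old, with no other allele or treatment named in the labels. Libraries held 21014060 to 22706296 counts assigned to genes. The labels do not say which sequence the knockout allele lacks, and Ankrd31, an ankyrin-repeat protein needed in meiosis, was at 40.8, 33.2 and 38.0 CPM (reads counted on the gene, relative to the normalized library total) in KO testes, against 84.9, 52.3 and 63.2 CPM in WT testes. The gene was below every WT library in each KO library, with a log2 difference of -0.84 ± 0.17 (SE) and an edgeR adjusted p of 1.0, or of 0.00505 in a fit with the replicate numbers as blocks.

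Homeobox genes encode transcription factors that bind DNA through a homeodomain. The Rhox genes form a cluster on the mouse X chromosome that is expressed mainly in testis, ovary, epididymis and placenta, and Esx1 is a relative of the same family outside the cluster. Rhox5 and Rhox8 are known from Sertoli cells, the somatic cells that nurse germ cells inside the seminiferous tubules. Rhox5 responds to androgen there. Rhox10, Rhox13 and Esx1 are known from male germ cells: in mice Rhox10 promotes the establishment of spermatogonial stem cells, and Rhox13 is found in spermatogonia and early spermatocytes.

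The members were recognisable as one family from a short exon. Each of the 34 Rhox genes in the annotation and Esx1, 35 of 35 genes, had a coding exon of 46 bases, a length that 3.31% of 21951 protein-coding genes also had. In this family that exon encodes a piece of the homeodomain, so it is shown here for the 5 members, on the coding strand from 5′ to 3′ (GENCODE M21, GRCm38). Capitals mark the 13 bases that are the same in all 5.
Rhox5: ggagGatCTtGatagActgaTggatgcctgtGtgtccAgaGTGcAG
Rhox8: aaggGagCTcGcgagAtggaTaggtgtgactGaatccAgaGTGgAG
Rhox10: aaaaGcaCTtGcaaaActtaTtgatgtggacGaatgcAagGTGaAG
Rhox13: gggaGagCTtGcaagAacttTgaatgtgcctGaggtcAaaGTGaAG
Esx1: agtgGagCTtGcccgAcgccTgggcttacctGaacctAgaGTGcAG
The exons lie at chrX:37806074-37806119 (Rhox5), chrX:37876223-37876268 (Rhox8, minus strand), chrX:38069399-38069444 (Rhox10), chrX:38123074-38123119 (Rhox13) and chrX:137117258-137117303 (Esx1, minus strand). Pairs of members were the same at 21 to 30 of the 46 bases. Rhox10 and Esx1 were the least alike, at 45.7%, and Rhox8 and Esx1 the most alike, at 65.2%. The exon did not set the Sertoli cell members apart from the germ cell members: Rhox5 and Rhox8 shared 28 bases, as many as Rhox8 and Rhox13.

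The Rhox genes and pseudogenes span 1092.2 kb of the X chromosome, and Esx1 lies 98.8 Mb beyond it. In the deposited table (mm10) Rhox5 (ENSMUSG00000095180) covers chrX:37804842-37808876, Rhox8 (ENSMUSG00000064137) chrX:37874778-37878944, Rhox10 (ENSMUSG00000053909) chrX:38066475-38071691, Rhox13 (ENSMUSG00000050197) chrX:38121219-38129967 and Esx1 (ENSMUSG00000023443) chrX:137115397-137122083. No other annotated gene overlapped any member. Of the 50-base stretches of their transcripts, Rhox8 shared 4.9% with another gene and the other members shared 0, so reads of the members could nearly all be placed on 1 gene.

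Rhox8 was by far the most abundant member and Rhox10 the least. Levels of different genes were compared as CPM per kilobase of exon, with 1 summed exon length for each gene. On this scale Rhox8 averaged 194 ± 22.2, Rhox5 61.0 ± 12.8, Rhox13 43.0 ± 5.56, Esx1 38.9 ± 6.54 and Rhox10 5.63 ± 0.594 (SD over the 6 libraries). This order was found in 6 of 6 libraries, although the ranges of Rhox5, Rhox13 and Esx1 overlapped, and the SD of Rhox13 and Esx1 spanned the gap between them. Rhox8 lay above 99.3% of the tested genes, Rhox5 above 95.3%, Rhox13 above 92.2%, Esx1 above 91.0% and Rhox10 above 48.2%. Among the Rhox genes, Rhox8 alone held 53.9% to 68.3% of the level per kilobase in a library.

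**Figure D1:**
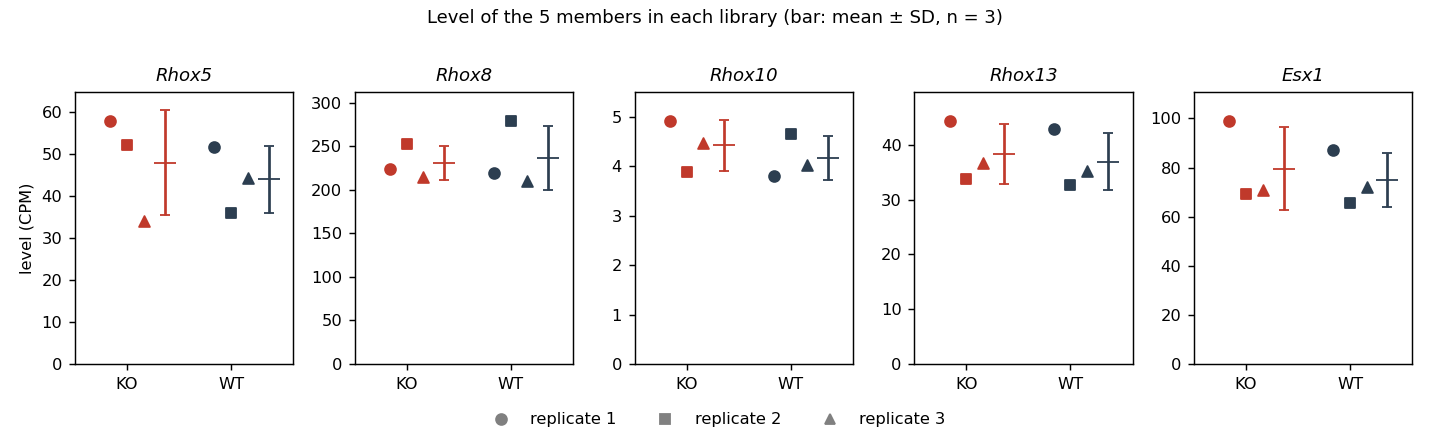
Level in CPM of each member in the 3 KO libraries (left in each panel) and the 3 WT libraries, with the mean and SD of each genotype and the replicate number given by the shape of the point. The genotypes overlap in every panel, and replicate 1 is highest in both genotypes for Rhox5, Rhox13 and Esx1.

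For neither Sertoli cell member was a difference between the genotypes detected. Rhox5 was at 57.9, 52.1 and 33.97 CPM in KO replicates 1, 2 and 3, against 51.8, 35.9 and 44.3 CPM in WT replicates 1, 2 and 3. The highest and the lowest of these 6 values were both from KO testes, and the group means were 48.0 ± 12.5 CPM in KO and 44.0 ± 7.96 CPM in WT (SD, n = 3 each). Rhox8 was at 223.6, 252.1 and 214.9 CPM in KO replicates and 219.7, 279.0 and 210.5 CPM in WT replicates. Here both the highest and the lowest library were WT, and the means were 230.2 ± 19.4 CPM in KO and 236.4 ± 37.2 CPM in WT (SD, n = 3 each). The log2 difference was 0.13 ± 0.22 for Rhox5 and -0.04 ± 0.11 for Rhox8 (SE), each with an edgeR quasi-likelihood adjusted p of 1.0 over 18040 genes. The same fit called 0 of 18040 genes, a background of 0%, and with replicate numbers as blocks it called 8 genes, 0.0443%, of which 0 were members. Ankrd31 itself passed in the fit with blocks but not in the fit without them. Not passing in the fit without blocks therefore does not show that a gene is unchanged. The 95% intervals allow KO levels of 0.758 to 1.57 times WT for Rhox5 and of 0.820 to 1.16 times WT for Rhox8. The sign of both estimates rested on single libraries: Rhox5 was at -0.03 without KO replicate 1 and at -0.0013 without WT replicate 2, and Rhox8 at 0.01 without KO replicate 3 and at 0.10 without WT replicate 2.

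No difference between the genotypes was detected for the 3 germ cell members either. Rhox10 was at 4.92, 3.89 and 4.46 CPM in KO testes and 3.80, 4.66 and 4.02 CPM in WT testes, values that interleave. The 2 genotypes overlapped in this way for all 5 members, while 6.59% of the 18040 tested genes had no overlap in CPM. Rhox13 was at 44.4, 33.7 and 36.8 CPM in KO testes and 42.9, 32.7 and 35.3 CPM in WT testes. Esx1 was at 99.0, 69.1 and 70.7 CPM in KO testes and 87.0, 65.6 and 71.9 CPM in WT testes. For both Rhox13 and Esx1 each genotype held 1 high library, replicate 1, and 2 lower ones close together. Log2 differences of KO over WT were 0.09 ± 0.16 for Rhox10, 0.05 ± 0.13 for Rhox13 and 0.09 ± 0.16 for Esx1 (SE), and each edgeR adjusted p was 1.0. Their 95% intervals in fold terms were 0.829 to 1.36 for Rhox10, 0.851 to 1.26 for Rhox13 and 0.821 to 1.38 for Esx1. Without KO replicate 1 the estimate for Rhox13 was -0.07 and that for Esx1 was -0.10, and without WT replicate 2 that for Rhox13 was -0.03. Scaling the libraries to the summed counts of germ cell markers in place of all genes gave -0.0105 for Rhox13, while that scaling moved the median of all genes by -0.07.

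Comparing same-numbered libraries narrowed the range for 3 of the members. With replicate numbers as blocks, the log2 difference of Rhox8 was -0.03 ± 0.05, that of Rhox13 0.05 ± 0.06 and that of Esx1 0.08 ± 0.05 (SE), with edgeR adjusted p of 0.915, 0.888 and 0.794. In fold terms the 95% intervals then ran over 0.912 to 1.05 for Rhox8, 0.949 to 1.13 for Rhox13 and 0.977 to 1.15 for Esx1. The Rhox5 interval did not narrow but widened, to 0.661 to 1.77 times WT. Its pair differences, KO minus WT in log2 CPM, were 0.16, 0.54 and -0.38 for pairs 1, 2 and 3, and thus of both signs. Rhox13 had the most even pair differences, 0.05, 0.04 and 0.06. It was higher in KO in 3 of 3 pairs, as were 13.9% of all tested genes. Pair differences were of both signs for Rhox8 (0.02, -0.15 and 0.03), Rhox10 (0.36, -0.25 and 0.15) and Esx1 (0.19, 0.08 and -0.02).

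**Figure D2:**
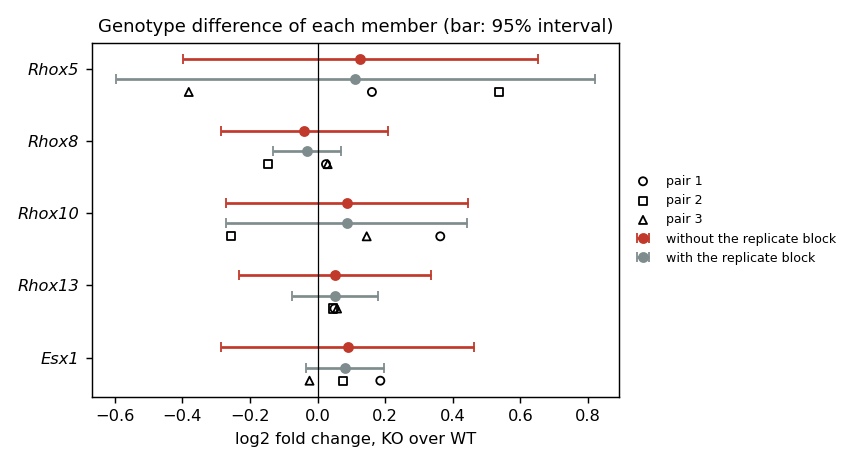
Log2 difference of KO over WT for each member with its 95% interval, without and with the replicate number as a block, and the differences of the 3 same-number pairs as points. Every interval includes 0, and the blocked intervals of Rhox8, Rhox13 and Esx1 are the narrowest.

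Set against each other, germ cell members were less abundant than Sertoli cell members in every library, by nearly the same ratio in both genotypes. The summed level per kilobase of Rhox10, Rhox13 and Esx1 over that of Rhox5 and Rhox8 was -1.29, -1.83 and -1.42 on the log2 scale in KO replicates 1, 2 and 3, against -1.36, -1.87 and -1.51 in WT replicates 1, 2 and 3. Libraries of one number were much closer to each other than libraries of one genotype: the pair differences were 0.07, 0.04 and 0.09, and the SD within a genotype was 0.28 in KO and 0.26 in WT. The mean difference of KO minus WT was 0.07, with no test made on this ratio. In bulk tissue fewer cells of a type and less RNA per cell cannot be told apart, so the ratio measures neither alone. Within the germ cell members, the log2 ratio of Rhox13 over Esx1 was 0.02, 0.15 and 0.24 in KO and 0.16, 0.18 and 0.16 in WT. The Sertoli cell members were less tied to each other, the log2 ratio of Rhox5 over Rhox8 being -1.27, -1.60 and -1.99 in KO and -1.41, -2.28 and -1.57 in WT.

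Set against markers of their own cell type, Rhox5, Rhox8, Rhox13 and Esx1 each had overlapping genotypes. The log2 ratio of Rhox8 over the summed Sertoli cell markers, per kilobase, was -4.80, -4.72 and -4.77 in KO replicates 1, 2 and 3, against -4.82, -4.47 and -4.75 in WT replicates 1, 2 and 3. That of Rhox5 was more spread, at -6.08, -6.32 and -6.76 in KO and -6.23, -6.75 and -6.32 in WT. Over the summed early meiotic genes, Rhox13 was at -4.11, -4.02 and -4.10 in KO and -4.17, -3.72 and -3.93 in WT. WT replicate 2 held the highest ratio for both Rhox8 and Rhox13, each against the marker list used. In that library Rhox8 itself was highest (279.0 CPM). Rhox13 itself was lowest there (32.7 CPM), as was the meiotic sum (492 per kilobase), so the high ratio does not mean a high Rhox13 level. Esx1 over the same meiotic genes was at -4.13, -4.17 and -4.34 in KO and -4.33, -3.90 and -4.08 in WT, with WT replicate 2 highest again. Esx1 itself was also lowest in that library (65.6 CPM). No test was made on these ratios.

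The replicate number, which the labels do not explain, went with larger differences than the genotype did for Esx1, Rhox13 and Rhox8. This also held for Rhox5, which did not pass the test of number. In a test of number added after the data were seen, the edgeR F test called 1587 of 18040 genes, 8.80%, among them Esx1, Rhox8 and Rhox13. The 2 germ cell members were called and highest in number 1, as were 3.75% of all tested genes, and Rhox8 was called and highest in number 2, as were 1.98%. Esx1 differed by -0.46 between numbers 2 and 1 and by -0.38 between numbers 3 and 1 (edgeR adjusted p = 0.00303). For Rhox13 the differences were -0.39 and -0.28 (edgeR adjusted p = 0.0129), and for Rhox8 they were 0.26 and -0.06 (edgeR adjusted p = 0.0100). The count of called genes moved with single libraries: it was 1006 without KO replicate 1, 2704 without KO replicate 2, 429 without KO replicate 3, 279 without WT replicate 1, 2041 without WT replicate 2 and 434 without WT replicate 3. Rhox5 and Rhox10 did not pass, with edgeR adjusted p of 0.548 and 0.990. Rhox5 differed by -0.33 between numbers 2 and 1 and by -0.48 between numbers 3 and 1. Esx1 passed whichever single library was left out. Rhox8 did not pass without KO replicate 3 (adjusted p = 0.0567 in edgeR), WT replicate 2 (0.0754) or WT replicate 3 (0.0867). Rhox13 did not pass without KO replicate 1 (adjusted p = 0.0786 in edgeR), KO replicate 3 (0.0530), WT replicate 1 (0.127) or WT replicate 3 (0.0543), nor with DESeq2 (0.0791). Rhox5 passed without KO replicate 2 (adjusted p = 0.0473 in edgeR) and without WT replicate 3 (0.0362).

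Markers of meiotic cells also differed by number and, like Rhox13 and Esx1, were highest in number 1, while Rhox10 differed little between numbers (-0.02 and -0.04). The summed level of 12 early meiotic prophase genes was 2163, 1575 and 1805 CPM in KO replicates 1, 2 and 3, against 2166, 1228 and 1534 CPM in WT replicates 1, 2 and 3. All 12 were highest in number 1, as were 6337 of 18040 tested genes. Of the 12, 9 passed the edgeR test of number, against 8.80% of all tested genes. Of 17 Sertoli cell markers 7 passed, and 6 of these were highest in number 2, as Rhox8 was. In all 11 of the 17 were highest in number 2, as were 6209 of 18040 tested genes. The summed level of the 17 was 9159 to 10000.3 CPM in KO libraries and 8687 to 9735 CPM in WT libraries. Leydig cell genes summed to 362, 766 and 254 CPM in KO replicates 1, 2 and 3, against 340, 396 and 396 CPM in WT replicates. Genes of epididymis and rete testis, tissue that also expresses Rhox5, summed to 10.1 to 14.8 CPM in KO libraries and to 8.42, 13.9 and 66.6 CPM in WT replicates 1, 2 and 3, with Lcn5 at 0 in all 6. The part of these cell types in the levels of the members was not tested. Markers of Sertoli cells, germ cells and Leydig cells were thus all detected in these whole testes. Of 10 pachytene and spermatid genes, Tnp2, Prm1 and Prm2 were at 0 in all libraries. Another 4 of the 10 passed the filter on low counts, with 58 to 1372 counts over the 6 libraries.

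The genes whose levels ran closest to each member over the 6 libraries differed between the members, and they did not always come from the cell type in which the member is known. Likeness was measured as the root mean square difference of log2 CPM after each gene was centred on its own mean, with 0 for identical profiles, and it is given as a description because the libraries share depth and number effects. Rhox13 was most like Tmem129 (0.0165), Syce1 (0.0197) and Smim8 (0.0264) among all tested genes. Syce1, which encodes a central element protein of the synaptonemal complex, was thus nearest among the cell type markers too, before Syce2 (0.0509). Esx1 was most like Ccdc173 (0.0452), Gm42600 and Gm5900, and among the markers like Syce1 (0.0609) and Gata1 (0.0789), the last a transcription factor of Sertoli cells. The distance between Esx1 and Rhox13 was 0.0639.

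Rhox8 had Sertoli cell genes as its nearest markers. It was most like Rnd2 (0.0286), Cryzl2 (0.0286) and Bcar1 (0.0308) among all genes, and among the markers like Inhbb (0.0435), the beta B subunit of inhibin and activin, and Mro (0.0625). Among the 66 genes of the cell type lists, Rhox5 was nearest to Defb19 (0.142), a beta-defensin, and Gata1 (0.186). Those lists did not include the androgen-responsive Sertoli cell genes, such as Tubb3 and Eppin, so nearness to them is not given. Its nearest genes of all were Ap1m2 (0.0588), Gm15441 and Shd. The distance between Rhox5 and Rhox8 was 0.344, and that between Rhox5 and the germ cell member Esx1 was 0.195. Rhox10, with the fewest counts, was nearest to Gm5879, Gm6851 and Phldb3, and among the markers to Fshr (0.127), the receptor for follicle-stimulating hormone, and Sox9 (0.129). The median distance of a member to all tested genes was 0.185 to 0.314.

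**Figure D3:**
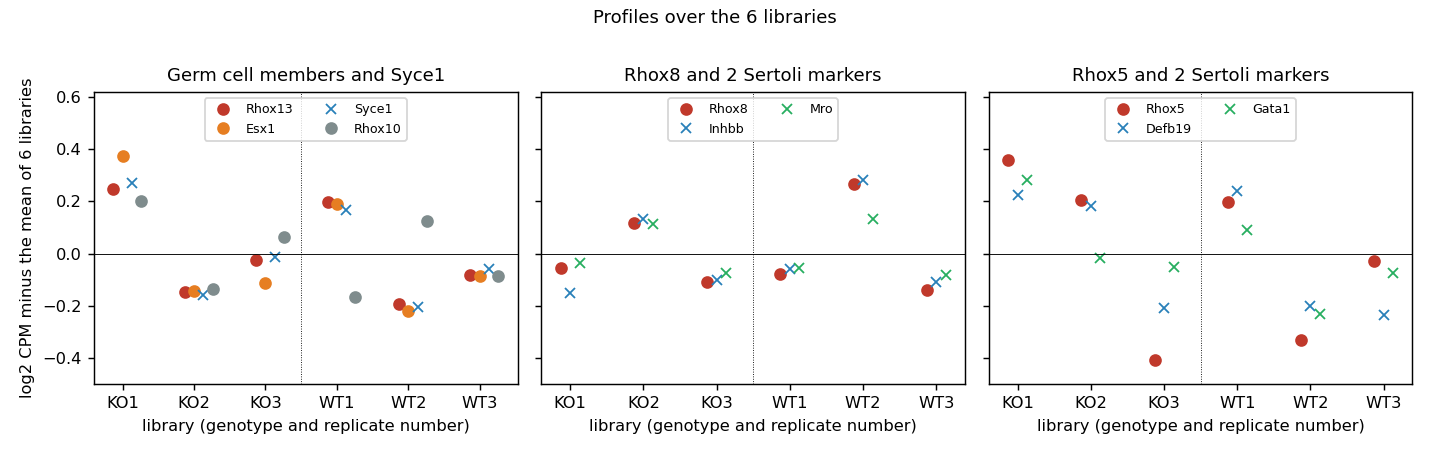
Log2 CPM of members (circles) and marker genes (crosses) minus each gene's mean over the 6 libraries, KO libraries left and WT libraries right of the dotted line. Rhox13, Esx1 and Syce1 lie together, highest in replicate 1 of both genotypes, Rhox8 lies with Inhbb and Mro, highest in replicate 2. Rhox5 is also highest in replicate 1 of both genotypes, with a wider spread, and Rhox10 is highest in KO replicate 1 and WT replicate 2.

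The promoters of Rhox13 and Esx1, the 2 germ cell members that moved together over the replicate numbers, differ in their number of CG pairs. The 250 bases before the RefSeq start of each (GRCm38.p6) are shown on the gene's strand from 5′ to 3′, with CG pairs, the targets of DNA methylation, in capitals.
Rhox13: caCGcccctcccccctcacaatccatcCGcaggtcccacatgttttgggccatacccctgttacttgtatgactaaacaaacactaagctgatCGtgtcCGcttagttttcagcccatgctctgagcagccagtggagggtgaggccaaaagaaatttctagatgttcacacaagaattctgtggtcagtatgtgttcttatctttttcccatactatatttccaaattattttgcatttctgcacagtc
Esx1: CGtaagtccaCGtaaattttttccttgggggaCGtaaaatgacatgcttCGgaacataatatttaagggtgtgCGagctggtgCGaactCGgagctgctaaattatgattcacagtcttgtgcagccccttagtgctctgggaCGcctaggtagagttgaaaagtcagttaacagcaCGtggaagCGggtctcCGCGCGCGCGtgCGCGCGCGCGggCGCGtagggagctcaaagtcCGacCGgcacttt
The windows are chrX:38120590-38120839 for Rhox13 and chrX:137120327-137120576 for Esx1 (minus strand). Rhox13 had 4 CG pairs, below the median of 6 over 27025 promoters, and Esx1 had 24, a number that 11.7% of promoters reached. The RefSeq start of Esx1 lies 1757 bases inside the gene as counted, and that of Rhox13 lies 379 bases before it. Rhox10 had 8 CG pairs. The GATA motif AGATAA, searched on both strands, was found once in the Rhox13 window and not in that of Esx1, and 10.3% of promoters held it. The androgen receptor half-site TGTTCT was likewise found once in the Rhox13 window, where it overlaps the GATA motif by 1 base, and not in that of Esx1, and 16.2% of promoters held it. The E-box CANNTG was found once in each window, and 66.0% of promoters held at least 1, while the cAMP response element TGACGTCA, held by 1.62% of promoters, was found in neither. No methylation was measured, and these are sequence features only.

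Most other genes of the Rhox cluster had few counts. Of 30 other Rhox genes 10 passed the filter on low counts (Rhox1, Rhox2a, Rhox2b, Rhox2c, Rhox2d, Rhox2f, Rhox2h, Rhox7a, Rhox7b and Rhox11), and their summed level with the rest was 16.1 to 22.5 CPM in KO libraries and 15.3 to 19.5 CPM in WT libraries. Rhox3a and Rhox3g were at 0 in all 6 libraries, and Rhox2g, with 50 counts in all, had the most among those that did not pass. Of the 10 tested genes 6 had estimates above 0 and 4 below, and 0 passed in either fit. Rhox2d had the smallest unadjusted p: it had 48, 32 and 51 counts in KO replicates 1, 2 and 3, against 35, 18 and 19 counts in WT replicates. Its log2 difference was 0.86 ± 0.31 (SE; edgeR adjusted p = 1.0, and 0.434 with the block). The Rhox2 copies share 44.7% to 100% of their 50-base stretches with other copies, so their single counts are uncertain. Summed over 8 copies, Rhox2 was at 10.2, 7.14 and 8.97 CPM in KO replicates and 9.01, 5.98 and 7.01 CPM in WT replicates. Rhox2h (0.66 ± 0.42) and Rhox7b (-0.45 ± 0.28) were the next by unadjusted p.

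**Figure D4:**
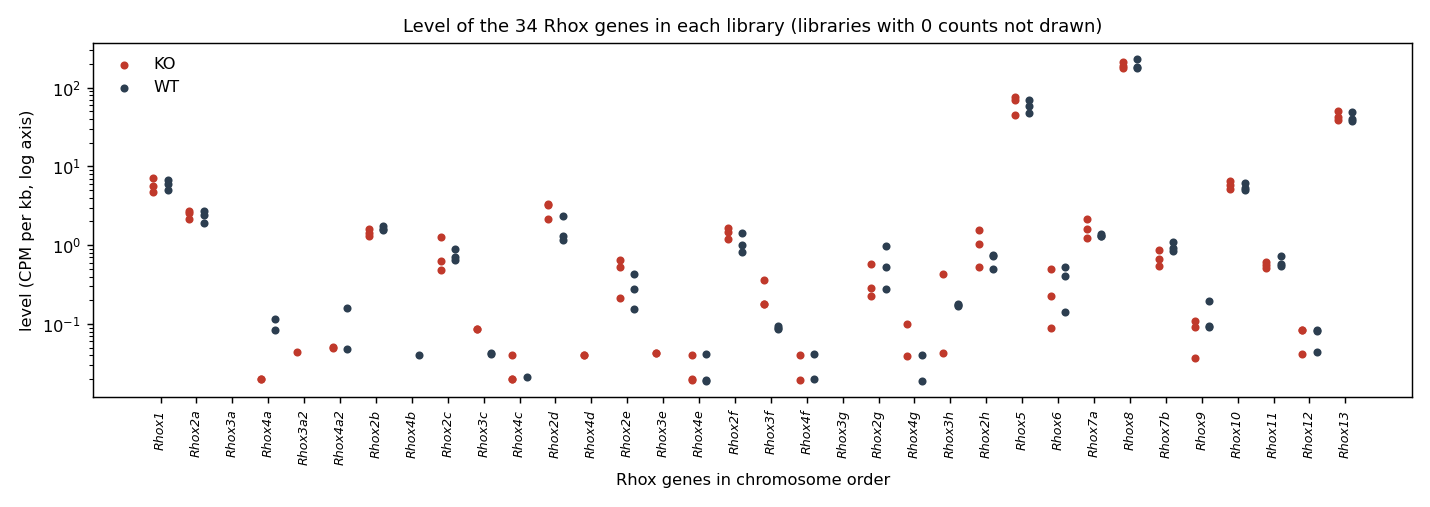
Level per kilobase of exon, on a log axis, of the 34 Rhox genes in chromosome order, with 3 KO libraries left and 3 WT libraries right of each tick and libraries with 0 counts not drawn. Rhox8, Rhox5 and Rhox13 lie above all other genes of the cluster in both genotypes, and Rhox10 lies at the level of Rhox1.

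No regulator, target or cell type marker tested beside the members passed the same edgeR test of genotype, which called 0 of 18040 genes. Of 10 genes known to control Rhox5 or to respond to it, 9 were tested, 3 with estimates above 0 and 6 below and a median log2 difference of -0.01. Those with the smallest unadjusted p were Gata4 (-0.12 ± 0.13), a transcription factor of Sertoli cells, Gabpa (0.05 ± 0.06) and Ets2 (-0.09 ± 0.10), both of the ETS family. The 4 androgen-responsive Sertoli cell genes had 2 estimates above 0 and 2 below, among them Eppin (-0.08 ± 0.14), Cldn3 (-0.52 ± 0.55) and Tubb3 (0.08 ± 0.19). The Cldn3 value rests on WT replicate 3, which had 134 counts, against 35 to 65 in the other libraries. Its same-number differences were 0.24, 0.84 and -1.95 for pairs 1, 2 and 3. Of 17 Sertoli cell markers 9 were above 0 and 8 below, with a median of 0.00, Amh (-0.30 ± 0.21), Cst9 (0.12 ± 0.08) and Cst12 (0.12 ± 0.07) having the smallest unadjusted p. Over all 18040 tested genes 8618 estimates were above 0 and 9422 below. None of the members of these lists passed in the edgeR fit with or without the block. The fit with the block called 8 of 18040 genes, so not passing does not set these lists apart.

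Germ cell lists showed more one-sided signs, again with 0 genes passing in either edgeR fit. All 12 early meiotic genes had estimates above 0, with a median of 0.16, among them Dmc1 (0.25 ± 0.19), the meiotic recombinase, Smc1b (0.15 ± 0.12) and Syce2 (0.11 ± 0.10). With replicate numbers as blocks, Dmc1 was at 0.26 ± 0.05, Smc1b at 0.16 ± 0.05 and Syce2 at 0.11 ± 0.04 (SE). Their edgeR adjusted p in that fit were 0.142, 0.431 and 0.616. All 12 were also highest in number 1, so their signs are not separate observations. Their summed level was 2163 CPM in KO against 2166 CPM in WT for replicate 1. For replicates 2 and 3 it was 1575 against 1228 CPM and 1805 against 1534 CPM. The 8 tested of 9 other X-linked germ cell genes were also above 0, with a median of 0.14, Usp26 (0.16 ± 0.08), Taf7l (0.16 ± 0.09) and Tex16 (0.23 ± 0.13) having the smallest unadjusted p. With the block, Usp26 was at 0.16 ± 0.05, Taf7l at 0.16 ± 0.04 and Tex16 at 0.24 ± 0.06 (SE). Their edgeR adjusted p were then 0.505, 0.316 and 0.302. Over the X chromosome 497 of 870 tested genes were above 0, with a median of 0.02. Among 13 genes of undifferentiated spermatogonia 2 were above 0 and 11 below, with a median of -0.09, among them Nanos3 (-0.41 ± 0.16), Ret (-0.15 ± 0.10) and Lhx1 (-0.29 ± 0.24). Their summed level was 371 CPM in KO against 366 CPM in WT for replicate 1. It was lower in KO for replicates 2 and 3, at 390 against 433 CPM and 424 against 443 CPM. Of 8 genes of differentiating spermatogonia 1 was above 0 and 7 below, with a median of -0.01, among them Ccnd2 (-0.28 ± 0.14), Sohlh1 (-0.13 ± 0.08) and Dmrtb1 (0.07 ± 0.09). Here too replicate 1 was alike in KO and WT, with summed levels of 1131 and 1130 CPM. For replicates 2 and 3 the sums were 1176 against 1252 CPM and 1116 against 1189 CPM. The germ cell members, with 3 of 3 estimates above 0 and between 0.05 and 0.09, thus lay below the medians of the early meiotic and X-linked lists.

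Other lists gave the setting. All 4 tested pachytene and spermatid genes were below 0, with a median of -0.42, among them Ldhc (-1.37 ± 1.07) and Piwil1 (-0.64 ± 0.37). Both values rest on WT replicate 1, which had 175 counts of Ldhc, against 16 to 37 in the other libraries, and 462 counts of Piwil1, against 173 to 195. The same-number differences of Ldhc were -2.17, 0.47 and 0.13 for pairs 1, 2 and 3. The 7 Leydig cell genes had 3 estimates above 0 and 4 below, with Hsd17b3 at -0.58 ± 0.24 and Star at 1.55 ± 0.83. Star had 2123, 4100 and 510 counts in KO replicates 1, 2 and 3, against 954, 852 and 507 in WT replicates. The 5 tested epididymis and rete genes were all below 0, with Pax8 at -0.65 ± 0.34 and a median of -1.81. Here WT replicate 3 stood apart, as in the summed level of the list, with 133 counts of Krt18, against 4 to 28 in the other libraries. Among 10 tested homeobox genes outside the family 2 were above 0 and 8 below, with a median of -0.23 and with Lhx9 (-0.33 ± 0.17) and Six4 (-0.28 ± 0.15) among those with the smallest unadjusted p. None of these genes passed the edgeR test. The tested genes next to the Rhox cluster, Gm9 (0.18) and Lamp2 (0.03), and those next to Esx1, Gm5761 (0.08) and Gm8036 (0.02), did not pass either.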

How the data were processed

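The values are raw counts of reads per gene that the authors deposited as 1 table covering all 6 libraries, unscaled. The kit used for the libraries keeps strand, per the labels' protocols, and bcl2fastq 2.19.1, GSNAP (2018-03-11), featureCounts 1.6.0 and the build mm10 are named in the submitters' processing notes. How strand and reads with several matches were handled, and with which annotation release, is not given in the sources used here. Of 49763 rows, 92 named no gene and held 1 count in all; they were left out. Symbols were matched for 49326 of 49671 gene identifiers.

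Genes were filtered with filterByExpr, scaled with TMM factors and tested in R 4.3.3 with edgeR 4.0.16 (two-sided quasi-likelihood F test from a robust fit, Benjamini-Hochberg adjustment over 18040 genes, threshold 0.05). Log2 fold changes are unshrunk coefficients, KO over WT, and CPM uses effective library sizes. Log2 CPM for pairs and likeness used a prior count of 2. Alternatives were DESeq2 1.42.0, voom in limma 3.58.1, other scalings and filters, and fits without single libraries or pairs.

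Deviations from the genotype means correlated at 0.42, 0.26 and 0.28 between same-numbered libraries, all above 0.1, the limit for pairing. Equal numbers were therefore treated as pairs in the pair differences and the fits with the block. The main edgeR test left the pairing out. The pairing is a hint from the data and from the sample titles, where same-numbered libraries carry consecutive serial numbers. The labels do not say what a number marks. The design text names 3 mice of each genotype. Replicates of a genotype differed by chi-square values of 7.36 to 12.96 per degree of freedom, so none were duplicates. The members, gene lists and tests were chosen with earlier results of these data known. Besides the members, the text names the other Rhox genes that passed the filter, the 3 genes of each list with the smallest unadjusted p (a selection for some lists), the 3 genes and the 2 markers nearest to each member, and the tested neighbours. Tnp2, Prm1, Prm2, Lcn5, Rhox3a and Rhox3g were named after their values were seen. One gene that the rule names is not reported here. Exon sequences were read from GENCODE M21 transcripts and promoters from RefSeq; the promoter table held no Rhox8 entry, and that of Rhox5 starts 50234 bases before the gene as counted and is not shown.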

Additional observations from a re-analysis of the deposited data

How the results depend on the processing

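Each member's genotype difference was recomputed under 21 alternatives, and 0 passed the threshold for any member (adjusted p of 0.740 to 1.0 in edgeR, DESeq2 or limma). The number of genes called was 0 in the main edgeR test (374 at an unadjusted p below the threshold), 8 with the replicate number as a block, 2 with germ cell scaling, 1 with no filter, 2 with DESeq2, 14 with DESeq2 and the block, 1 with voom and the block, 63 without pair 1 and 57 without pair 2; the cause was not tested. Leaving out 1 library gave log2 differences of -0.0318 to 0.323 for Rhox5, -0.109 to 0.0983 for Rhox8, 0.0046 to 0.180 for Rhox10, -0.0681 to 0.172 for Rhox13 and -0.0979 to 0.213 for Esx1. The sign turned under germ cell scaling for Rhox13 (-0.0105), without pair 1 for Rhox10 (-0.0549) and without pair 2 for Rhox5 (-0.0966) and Rhox8 (0.0279). The block changed no call of a member in the test of genotype. In the added test of replicate number, DESeq2 called 672 genes and gave -0.398 for Rhox13, no longer past the threshold. Leaving out 1 library there gave 279 to 2704 genes and, for number 2 over number 1, -0.668 to -0.0294 for Rhox5, 0.172 to 0.341 for Rhox8, -0.286 to 0.231 for Rhox10, -0.400 to -0.393 for Rhox13 and -0.544 to -0.384 for Esx1. With 3 mice a group, small differences stay within the intervals. Counts of single Rhox copies that share stretches of sequence are uncertain.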
